A study of Zea mays with 6 samples.

Results

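The HSP70 family genes of maize (Zea mays) were followed in kernels of the shrek1 mutant and of wild type (WT). They are the protein-coding genes whose deposited description names a 70 kDa heat shock or heat shock cognate protein, HSP70 or an Hsp70 protein domain, without the endoplasmic reticulum protein BiP and the HSP70-HSP90 organizing proteins. The wording found 39 of the 49785 genes in the deposited table. It took in 31 genes for HSP70 proteins, 7 genes named for a partner that binds HSP70, and LOC100279210, a gene for a forkhead-associated domain protein that lists the domain and had no count in any library. Of the 31 HSP70 protein genes, 28 list the Hsp70 domain. By their closest named protein, 13 have no stated compartment and are called cytosolic here, 4 are plastid, 3 are mitochondrial and 11 carry the numbers 14, 16 or 17 of the larger, HSP110-like branch.

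HSP70 proteins are ATP-driven chaperones. In the ATP-bound state they bind and release short hydrophobic stretches of unfolded proteins quickly, and in the ADP-bound state they hold them. J-domain proteins deliver clients and speed ATP hydrolysis, and nucleotide exchange factors, among them the HSP110-like proteins, help ADP leave. Plant cells keep cognate forms that are made in unstressed tissue and other forms that are strongly induced by heat, while organelle forms help to import and fold proteins in plastids and mitochondria. A developing cereal kernel makes large amounts of storage protein, a process in which BiP of the endoplasmic reticulum takes part.

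The series holds 3 libraries of shrek1 kernels, homozygous by the genotype label (Shrek1-/-), and 3 libraries of WT kernels. All kernels were taken 13 days after pollination from field-grown plants and were peeled of their pericarp before RNA extraction, so endosperm and embryo were sampled together. The labels do not say which gene the shrek1 mutation hits, whether both kinds of kernel came from the same ears, or whether the 3 libraries of a genotype came from separate ears, so p-values measure the spread between these libraries, which may be technical. The targeted gene was not matched to an identifier, and the genotype labels were not checked with it.

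The libraries held 17145006 to 20288565 counts. On a principal component analysis the genotypes separated along the first component, with 87.4% of the variance, and shrek1 replicate 3 stood apart from the other shrek1 libraries along the second, with 4.09%. In bulk kernels fewer cells of a type and less RNA per cell cannot be told apart, and the levels of cell type markers differed. Of 43 tested genes of the endosperm marker list, 37 fell and 3 rose, with summed levels of 58300 to 80500 CPM (counts scaled to library size, TMM-normalised) in shrek1 and 135000 to 187000 CPM in WT, and 3 zein genes of the list at 0 in each genotype. Of 7 tested embryo markers, 6 fell, with sums of at most 116 CPM in shrek1 and at least 5540 CPM in WT, and glb2, an embryo storage globulin, had no count in shrek1. Of 3 aleurone markers, 2 rose, with sums of 627 to 815 CPM in shrek1 and 310 to 404 CPM in WT. Of 4 basal transfer layer markers 2 were tested and 1 rose, with sums of 4.17 to 46.7 CPM in shrek1 and 6.36 to 7.81 CPM in WT, and betl1 was at 0 in both genotypes. The part of these shifts in the HSP70 values was not tested.

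The question here is how the HSP70 genes differed between shrek1 and WT kernels, and whether the compartments moved alike. Most of the family was higher in shrek1. The cytosolic genes held the largest changes, up to 18.9-fold, while of the 2 most abundant LOC103650526 rose 1.44-fold and LOC103639924 did not pass. All 7 organelle genes rose, by 1.46-fold to 2.74-fold. Of all tested genes 32.0% were higher, and of those with a mean of at least 10 CPM 44.9% were. The median log2 fold change was 1.45 in the cytosolic and 0.40 in the HSP110-like genes, and the 4 genes that fell had at most 12.57 CPM in any library.

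Of the 39 genes, 34 had enough counts to be tested, and 24 of these rose and 4 fell in shrek1 (edgeR's quasi-likelihood test, Benjamini-Hochberg adjusted p of at most 0.05 over 22681 genes). Over all tested genes 64.4% were called, 32.0% higher and 32.4% lower, against 82.4% of the family called and 70.6% higher. The median log2 fold change (shrek1 over WT) was 0.64 in the family and -0.01 over all tested genes. The family is more abundant than the average gene, and among the 12110 tested genes with a mean of at least 10 CPM 71.3% were called and 44.9% were higher. At least 2-fold changes were found in 10 genes upward and 3 downward, where 14.2% and 20.0% of all tested genes had them. In 25 of the 34 genes every shrek1 library was above every WT library in CPM, and in 5 every shrek1 library was below, where 34.7% and 35.3% of all tested genes had these patterns.

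All 39 genes together took 0.5816%, 0.6544% and 0.4842% of all counts in the shrek1 libraries, and 0.4142%, 0.4024% and 0.413% in the WT libraries. All 3 shrek1 libraries lay above all 3 WT libraries, at 0.5734% ± 0.0854 in shrek1 and 0.4098% ± 0.00649 in WT (SD, n = 3 each). Zein storage proteins took 5.58% ± 0.785 of all counts in shrek1 and 17.2% ± 1.99 in WT. Of the counts on protein-coding genes other than zeins, the family took 0.6135% ± 0.0882 in shrek1 and 0.5027% ± 0.0164 in WT. The groups stayed apart there too, with 0.5231% in the lowest shrek1 library and 0.5216% in the highest WT library, so the gap between the closest libraries was small.

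**Figure D1:**
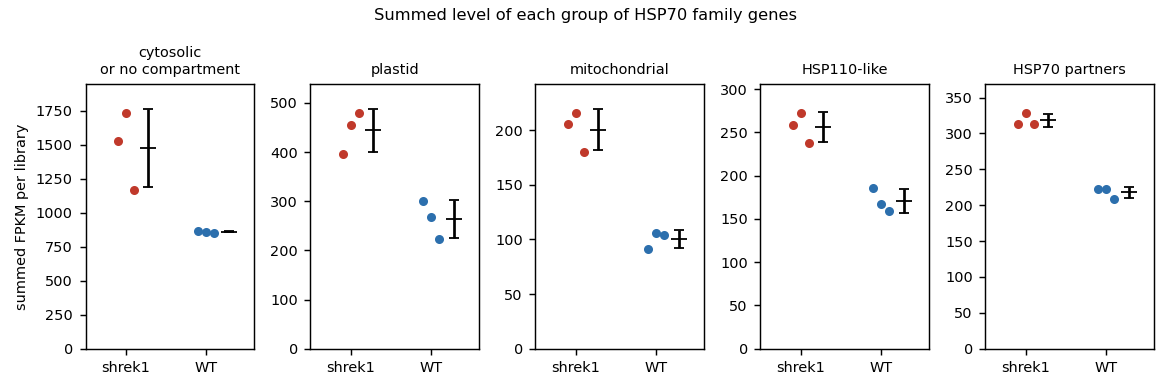
Summed level of each group of HSP70 family genes in FPKM (fragments per kilobase of gene, scaled by a normalised library size), 1 point per library, with the mean and SD of 3 libraries beside them; each panel has its own axis from 0. In each of the 5 groups the 3 shrek1 libraries lie above the 3 WT libraries.

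Levels of different genes are compared in FPKM, which corrects for gene length. Summed over each group, the cytosolic genes stood at 1476 ± 287.4 FPKM in shrek1 and 858.2 ± 3.731 FPKM in WT, and the plastid genes at 443.8 ± 43.38 FPKM in shrek1 and 264.2 ± 39.31 FPKM in WT. Mitochondrial genes summed to 200.4 ± 18.62 FPKM in shrek1 and 100.3 ± 8.122 FPKM in WT, and HSP110-like genes to 256.3 ± 17.53 FPKM in shrek1 and 170.8 ± 13.71 FPKM in WT (SD, n = 3 each). The ratios of shrek1 to WT were 1.72, 1.68, 2.0 and 1.5 in the order given. As shares of all counts, with no such scaling, the ratios were lower, at 1.43 for the cytosolic, 1.4 for the plastid, 1.67 for the mitochondrial and 1.28 for the HSP110-like genes. As shares of the summed FPKM of all HSP70 proteins, the cytosolic genes made up 61.74% ± 4.55 in shrek1 and 61.64% ± 1.96 in WT. The plastid share was 18.95% ± 3.74 in shrek1 and 18.91% ± 2.16 in WT, and both differences were smaller than the spread between libraries. The mitochondrial share was 8.463% ± 0.351 in shrek1 and 7.213% ± 0.783 in WT, with the shrek1 libraries above the WT libraries. The HSP110-like share was 10.85% ± 0.672 in shrek1 and 12.24% ± 0.58 in WT, with the shrek1 libraries below the WT libraries.

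**Figure D2:**
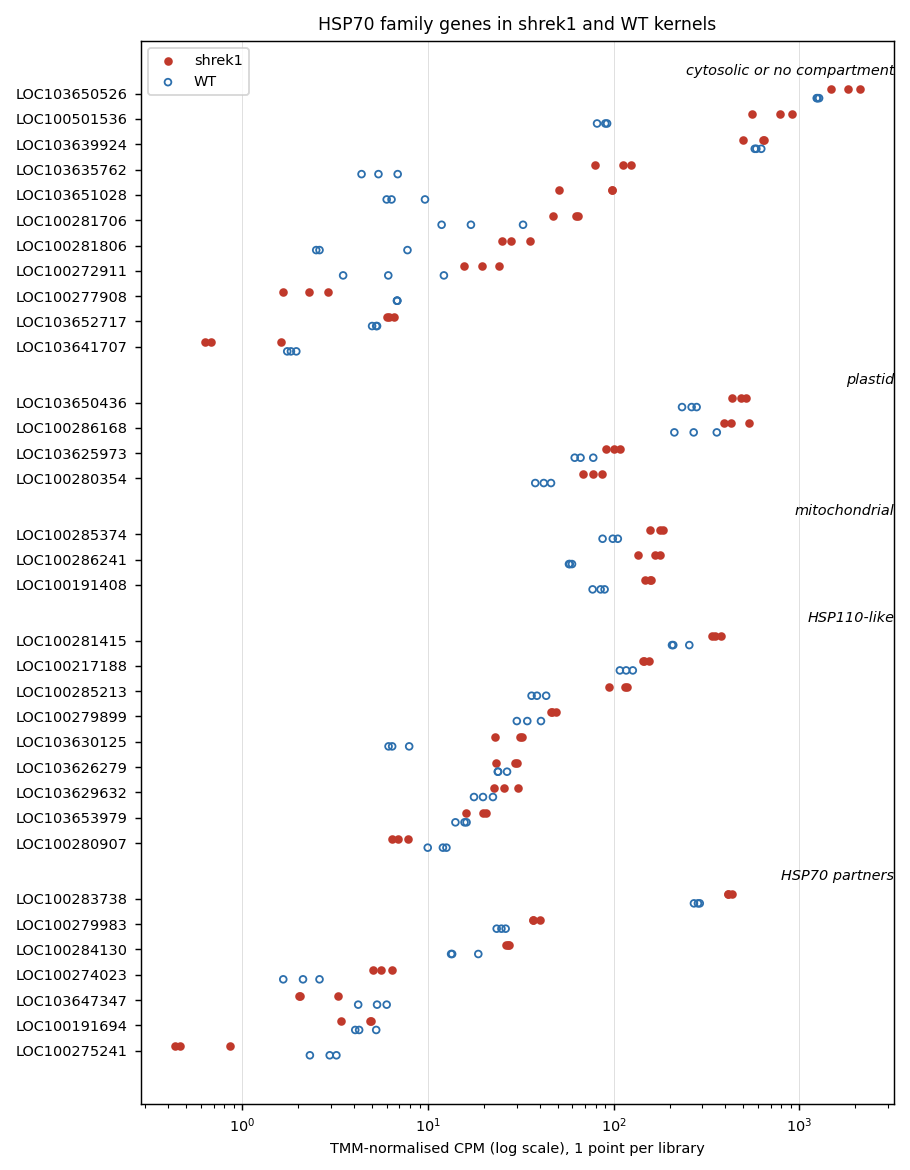
TMM-normalised CPM of the 34 tested genes on a log axis, 1 point per library, filled for shrek1 and open for WT, grouped by compartment and ordered within a group by the counts of the genes. The widest gaps between filled and open points are in the cytosolic group, while LOC103650526 and LOC103639924 there have close or mixed points. Outside it, LOC103630125 (HSP110-like) and LOC100275241 (a partner gene, lower in shrek1) also have wide gaps.

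Among the cytosolic genes, a pair held most of the mRNA. LOC103650526 (chromosome 3, 127903111 to 127907088) is closest to an Arabidopsis protein named heat shock cognate protein HSC70-4. For this gene and the next, cognate refers to that name only, not to how the genes are regulated. LOC103650526 had 1825, 2126 and 1476 CPM in the shrek1 libraries and 1253, 1241 and 1278 CPM in the WT libraries. All shrek1 libraries were above all WT libraries, and the gene rose by a log2 fold change of 0.52 ± 0.14 (SE, adjusted p = 0.00657). Scaled by library size alone, its log2 fold change was 0.24 and did not pass (adjusted p = 0.185). By mean FPKM it ranked 177 among all genes in shrek1 and 84 in WT, at 747.5 ± 140.3 FPKM in shrek1 and 529.2 ± 12.72 FPKM in WT (SD, n = 3 each).

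The other abundant cognate gene, LOC103639924 (chromosome 1, 157756195 to 157760096), has the same closest Arabidopsis protein. It had 641.7, 637.6 and 498.3 CPM in shrek1 and 623.7, 586.9 and 575.5 CPM in WT. The genotypes overlapped, with the lowest of the 6 values in shrek1 replicate 3. Its log2 fold change of -0.01 ± 0.12 did not pass (adjusted p = 0.964), and it stood at 0.10 without shrek1 replicate 3 and at 0.11 with an offset for gene length, also without a call. Small nucleolar RNA genes lie inside both cognate genes on the same strand, but these held at most 20 counts each over all 6 libraries.

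Of the other cytosolic genes, 6 had at least 10 CPM in the genotype where they were higher. For 4 of the 6 that genotype was shrek1 and the WT mean was under 10 CPM, so the choice of these genes favours a higher level in shrek1. LOC100501536 (chromosome 8, 175434966 to 175437929), described as heat shock protein 1 and closest to a maize 70 kDa heat shock protein, had 789.7, 914.4 and 557.0 CPM in shrek1 and 92.19, 81.39 and 90.17 CPM in WT. The lowest shrek1 library was far above the highest WT library, and the change was 8.57-fold (log2 3.10 ± 0.18, adjusted p = 4.4e-07). By mean FPKM it ranked 409 in shrek1 and 2080 in WT, so that in shrek1 it passed LOC103639924 in level, at 339.3 ± 84.07 FPKM beside 255.4 ± 36.58 FPKM.

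LOC103635762 (chromosome 8, 119215467 to 119218393), closest to a heat shock cognate 70 kDa protein, had 111.6, 123.7 and 78.96 CPM in shrek1 and 6.866, 5.409 and 4.386 CPM in WT. It had the largest change of the family at 18.9-fold (log2 4.24 ± 0.22, adjusted p = 7.23e-07), and 0.436% of all tested genes had a higher log2 fold change. Though its description says cognate, its WT level was low, at 2.534 ± 0.528 FPKM, against 47.05 ± 10.72 FPKM in shrek1.

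LOC103651028 (chromosome 3, 186198985 to 186202636), closest to the same maize heat shock protein as LOC100501536, had 97.43, 98.03 and 50.56 CPM in shrek1 and 9.634, 6.361 and 5.990 CPM in WT. The change was 11.2-fold (log2 3.49 ± 0.33, adjusted p = 9.52e-05). LOC100281806 (chromosome 1, 41028888 to 41031200), named heat shock cognate 70 kDa protein 2, had 28.08, 35.29 and 25.14 CPM in shrek1 and 7.752, 2.604 and 2.500 CPM in WT. Its change was 6.97-fold (log2 2.80 ± 0.43, adjusted p = 0.00113), or 10.93-fold (log2 3.45) without WT replicate 1. WT replicate 1 was the highest WT library for both genes. Neither overlapped between genotypes, and 34.7% of all tested genes likewise had every shrek1 library above every WT library.

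A further pair on chromosome 9 changed less and was less certain. LOC100281706, closest to HSP70-8 of Arabidopsis, a truncated form, had 64.08, 62.55 and 46.91 CPM in shrek1 and 32.50, 17.03 and 11.84 CPM in WT (log2 fold change 1.51 ± 0.36, adjusted p = 0.0088). LOC100272911, closest to a heat shock cognate protein, had 19.57, 23.98 and 15.65 CPM in shrek1 and 12.18, 6.110 and 3.490 CPM in WT (1.45 ± 0.42, adjusted p = 0.0209). WT replicate 1 was again the highest WT library, though still below every shrek1 library. Without a filter on low counts neither passed, at adjusted p = 0.0516 for LOC100281706 and 0.0827 for LOC100272911. The call of LOC100272911 was also lost without shrek1 replicate 2 (1.29, adjusted p = 0.0518) and without WT replicate 2 (1.35, adjusted p = 0.0743).

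Within each genotype the cytosolic genes varied together across libraries. In all 8 with at least 10 CPM, shrek1 replicate 3 was the lowest shrek1 library, and in 7 of the 8 WT replicate 1 was the highest WT library. For LOC100501536, LOC103635762 and LOC103651028 the log2 fold changes without shrek1 replicate 3 were 3.28, 4.41 and 3.74. Shrek1 replicate 3 was also the lowest shrek1 library for all 3 mitochondrial genes and for 8 of the 9 tested HSP110-like genes, and WT replicate 1 the highest WT library for 7 of those 9. In the plastid group shrek1 replicate 3 was the lowest for none of the 4 genes and the highest for 2. These libraries are points that share a depth and a kernel sample, so the genes are not independent of each other.

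The cytosolic HSP70 mRNA therefore had a different make-up in the 2 genotypes. The cognate genes LOC103650526 and LOC103639924 together made up 67.29%, 67.06% and 70.18% of the summed cytosolic FPKM in the shrek1 libraries and 90.84%, 92.69% and 92.83% in the WT libraries. LOC100501536 alone made up 22.82% ± 1.34 in shrek1 and 4.692% ± 0.227 in WT, and LOC103635762 3.173% ± 0.137 in shrek1 and 0.2951% ± 0.0603 in WT (SD, n = 3 each). The 11 cytosolic genes other than the cognate pair summed to 472.8 ± 114.1 FPKM in shrek1 and 67.65 ± 9.775 FPKM in WT, a ratio of 6.99, in a grouping made after the values were seen. Near-identical stretches are common among HSP70 genes, and how the counting treated reads that match several genes was not given in the sources used here, and the split of counts between close copies is uncertain.

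**Figure D3:**
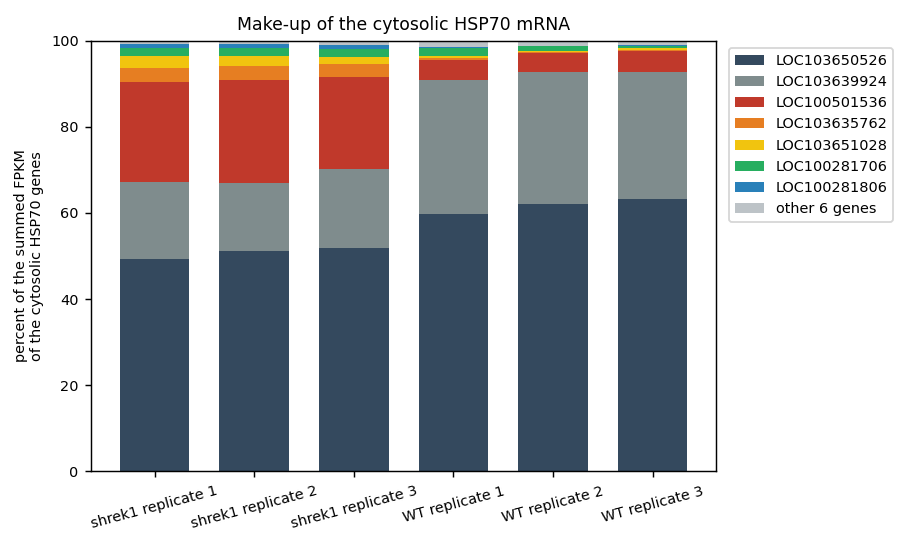
Percent of the summed FPKM of the 13 cytosolic HSP70 genes taken by each gene, 1 bar per library, shrek1 on the left and WT on the right. The LOC100501536 segment takes 21.33% to 23.92% in shrek1 and 4.432% to 4.852% in WT, and the segments of LOC103650526 and LOC103639924 are smaller in shrek1.

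The remaining cytosolic genes were low. LOC100277908, closest to heat shock cognate 70 kDa protein 2, had 2.894, 2.287 and 1.657 CPM in shrek1 and 6.811, 6.812 and 6.839 CPM in WT, and was the one cytosolic gene that fell (log2 fold change -1.58 ± 0.23, adjusted p = 0.000163). LOC103652717, named heat shock cognate 70 kDa protein 2, averaged 6.23 ± 0.288 CPM in shrek1 and 5.19 ± 0.169 CPM in WT, where the log2 fold change of 0.26 ± 0.17 did not pass (adjusted p = 0.191) and stood at -0.02 when scaled by library size alone. LOC103641707, named BIP2 but closest to heat shock-related 70 kDa protein 2, averaged 0.976 ± 0.559 CPM in shrek1 and 1.84 ± 0.105 CPM in WT and did not pass (-0.91 ± 0.42, adjusted p = 0.078). It overlaps a pseudogene on the other strand over 2452 bases, and the strand setting of the counting was not given in the sources used here. It passed, lower, in 5 of the alternatives, among them library size as the only scaling (-1.19) and leaving out shrek1 replicate 1 (-1.48). LOC103634464 had no count in shrek1 and 7, 2 and 0 counts in the WT libraries, and LOC100501445 had none in any library; neither was tested.

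All 4 plastid genes rose, against 32.0% of all tested genes and 44.9% of those with a mean of at least 10 CPM. The 4 plastid genes are closest to the stromal 70 kDa heat shock-related protein of chloroplasts, which in kernels would act in the amyloplasts and other plastids. LOC103650436 (chromosome 3, 99949336 to 99957794) had 435.4, 516.2 and 486.4 CPM in shrek1 and 279.8, 263.0 and 233.5 CPM in WT (0.89 ± 0.11, adjusted p = 4.02e-05). LOC100286168 (chromosome 10, 22005530 to 22010642) had 395.2, 426.6 and 533.8 CPM in shrek1 and 359.3, 269.8 and 212.3 CPM in WT (0.69 ± 0.19, adjusted p = 0.012). For LOC100286168 the closest libraries were nearer to each other than for LOC103650436, although their mean FPKM in WT were alike, at 112.1 ± 27.71 and 106.0 ± 8.758 FPKM.

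The other plastid genes stood lower. LOC103625973 (chromosome 5), which lists no Hsp70 domain, had 90.66, 107.9 and 100.9 CPM in shrek1 and 77.63, 66.31 and 61.69 CPM in WT (0.54 ± 0.11, adjusted p = 0.00121). LOC100280354 (chromosome 1) had 68.77, 77.64 and 86.16 CPM in shrek1 and 42.03, 45.98 and 37.82 CPM in WT (0.89 ± 0.11, adjusted p = 4.87e-05). None of the 4 overlapped between genotypes, WT replicate 3 was the lowest WT library for each, and none reached a 2-fold change. Over all tested genes, 34.7% had every shrek1 library above every WT library.

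All 3 mitochondrial genes rose as well, against 32.0% of all tested genes and 44.9% of those with a mean of at least 10 CPM. The closest named protein of the 3 mitochondrial genes is the mitochondrial 70 kDa heat shock protein, the motor of protein import into the matrix. LOC100286241 (chromosome 2, 195378277 to 195381230) had 166.4, 178.1 and 135.5 CPM in shrek1 and 58.08, 57.45 and 59.66 CPM in WT, the largest change among the organelle genes (1.45 ± 0.11, adjusted p = 1.3e-06). LOC100285374 (chromosome 5, 22643696 to 22649112) had 178.4, 184.1 and 156.5 CPM in shrek1 and 87.15, 105.3 and 98.95 CPM in WT (0.83 ± 0.10, adjusted p = 4.68e-05). LOC100191408 (chromosome 1, 228596733 to 228601034) had 156.5, 158.4 and 147.8 CPM in shrek1 and 77.02, 85.05 and 89.37 CPM in WT (0.88 ± 0.09, adjusted p = 1.06e-05).

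In shrek1 the mitochondrial genes stood at nearly 1 level, with 66.27 ± 9.578, 67.18 ± 6.129 and 66.98 ± 2.917 FPKM for LOC100286241, LOC100285374 and LOC100191408. In WT they stood at 24.64 ± 0.6557, 38.5 ± 4.476 and 37.14 ± 3.373 FPKM, so that LOC100286241 was below the other two in WT. The differences between these genes in shrek1 were within their spread.

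The HSP110-like genes gave a mixed picture. Of 11 genes 9 were tested, of which 6 rose and 1 fell, and their median log2 fold change was 0.40. That is 77.8% called and 66.7% higher, against 64.4% and 32.0% of all tested genes. Among tested genes with a mean of at least 10 CPM these shares were 71.3% and 44.9%. Scaled by library size alone, 3 were higher. In yeast and animals, HSP110 proteins act as nucleotide exchange factors of HSP70 and keep unfolded proteins from clumping.

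Against 32.0% of all tested genes, all 4 tested genes closest to HSP70-14 of Arabidopsis, a cytosolic HSP110, rose. LOC100281415 (chromosome 8) was the most abundant, with 349.9, 377.2 and 338.1 CPM in shrek1 and 255.5, 206.2 and 209.4 CPM in WT (0.67 ± 0.11, adjusted p = 0.000313). LOC100217188 (chromosome 6) had 146.3, 154.6 and 144.3 CPM in shrek1 and 126.8, 116.8 and 108.0 CPM in WT (0.34 ± 0.09, adjusted p = 0.00651). Its call was lost when scaled by library size alone (0.06), with upper-quartile scaling (0.20) and without WT replicate 3 (0.23). LOC100285213 (chromosome 8) had 114.4, 117.4 and 94.33 CPM in shrek1 and 43.30, 38.62 and 36.13 CPM in WT (1.47 ± 0.11, adjusted p = 1.42e-06). LOC103630125 (chromosome 6) had 31.43, 32.20 and 23.08 CPM in shrek1 and 7.918, 6.411 and 6.131 CPM in WT, a 4.24-fold change (2.09 ± 0.17, adjusted p = 2.01e-06). None of the 4 overlapped between genotypes, where 34.7% of all tested genes had every shrek1 library above every WT library. LOC100285213 and LOC103630125, which had the larger changes, were the lower of the 4 per length, at 10.96 ± 0.8471 and 1.887 ± 0.2289 FPKM in WT. Of the 2 untested genes of this number, LOC103637062 had 6, 7 and 2 counts in shrek1 and 8, 2 and 3 in WT, and LOC118473444 had none.

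Genes of the other numbers were split. For HSP70-16, LOC103629632 (chromosome 6) had 30.62, 25.59 and 22.63 CPM in shrek1 and 22.37, 19.78 and 17.69 CPM in WT, close to touching (0.40 ± 0.14, adjusted p = 0.0272). That call was lost in 9 of the 16 alternatives, among them library size as the only scaling (0.12), and leaving out shrek1 replicate 1 (0.27), shrek1 replicate 2 (0.42), WT replicate 2 (0.39) or WT replicate 3 (0.27). LOC103626279 (chromosome 5) had 29.35, 29.98 and 23.31 CPM in shrek1 and 23.86, 26.65 and 23.77 CPM in WT, which overlapped (0.15 ± 0.12, adjusted p = 0.291, and -0.13 when scaled by library size alone). It passed with the offset for gene length (0.33).

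For HSP70-17, an HSP110-like protein with a signal sequence for the endoplasmic reticulum, the 3 genes went different ways. LOC100279899 (chromosome 5) had 48.97, 46.54 and 45.82 CPM in shrek1 and 40.59, 34.26 and 30.09 CPM in WT and rose (0.43 ± 0.11, adjusted p = 0.00727), a call lost when scaled by library size alone (0.15). LOC103653979 (chromosome 4) had 20.61, 19.66 and 16.11 CPM in shrek1 and 15.73, 16.13 and 14.05 CPM in WT and did not pass (0.30 ± 0.13, adjusted p = 0.0685). It passed without shrek1 replicate 3 (0.40) and with the offset for gene length (0.52). LOC100280907 (chromosome 4), which lists no Hsp70 domain, had 6.426, 6.923 and 7.770 CPM in shrek1 and 12.57, 9.967 and 12.03 CPM in WT and fell (-0.71 ± 0.16, adjusted p = 0.00269).

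**Figure D4:**
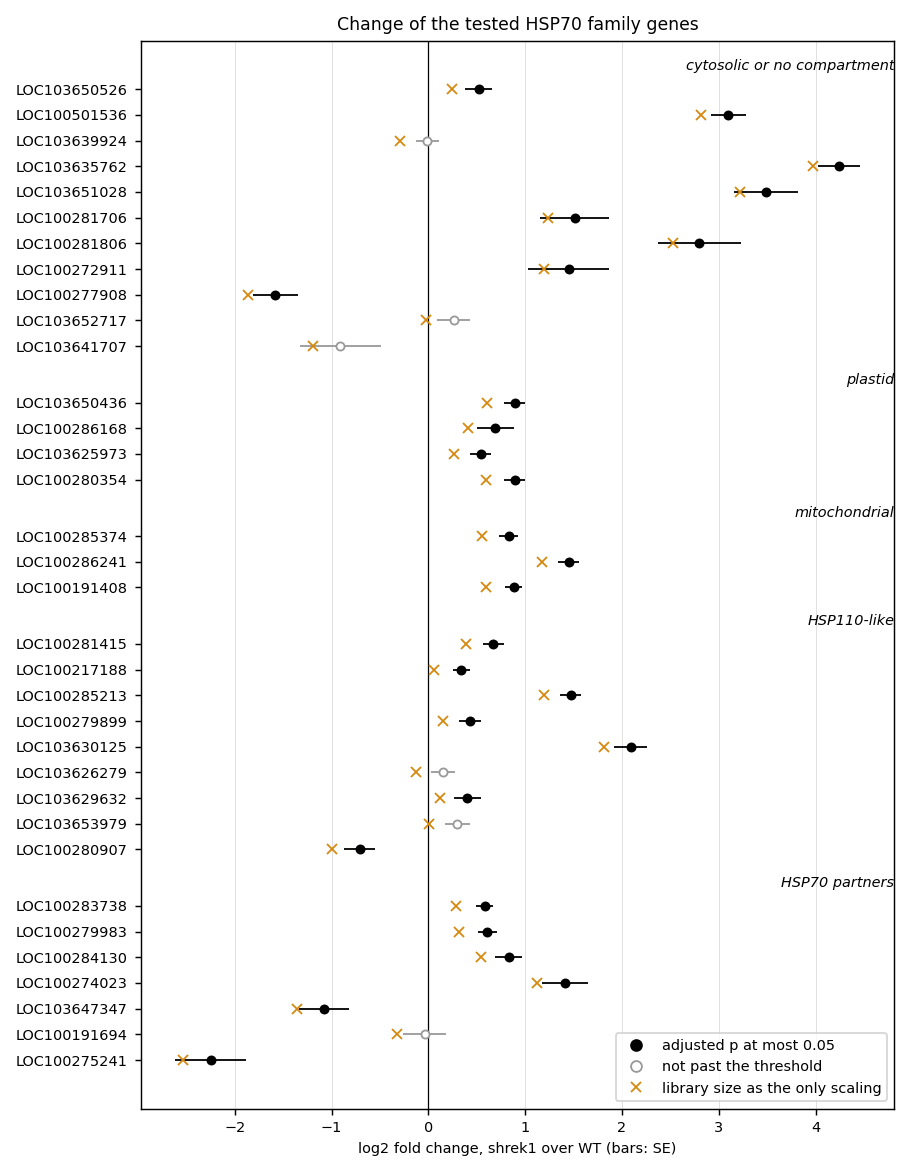
Log2 fold change of the 34 tested genes, shrek1 over WT, with the SE as a bar; filled points passed the adjusted threshold of 0.05, open points did not, and crosses give the value with library size as the only scaling. Nearly all crosses lie to the left of their points, and the cytosolic group reaches from -1.58 to 4.24.

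A few pairs of HSP110-like genes lie within the same stretch of a chromosome, and their levels were compared within each library. LOC100281415 and LOC100285213 are 126 kb apart on chromosome 8 with 1 gene between them. The log2 ratio of LOC100285213 to LOC100281415, in counts with a small constant added, averaged -1.71 in shrek1 and -2.50 in WT, a difference of 0.79. LOC100217188 and LOC103630125 are 619 kb apart on chromosome 6 with 18 genes between them, and the log2 ratio of LOC103630125 to LOC100217188 averaged -2.37 in shrek1 and -4.10 in WT, a difference of 1.73. LOC103653979 and LOC100280907 are 59.6 kb apart on chromosome 4 with 3 genes between them, and the log2 ratio of LOC100280907 to LOC103653979 averaged -1.41 in shrek1 and -0.41 in WT, a difference of -1.0. These differences follow from the fold changes given above. In each of these 3 pairs the ratios of the genotypes did not overlap, but the exact two-sided permutation p of 0.1, also 0.1 when adjusted over the 3 pairs, is the lowest that this number of libraries can give, so this test could not pass the threshold.

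Among the 7 partner genes that the wording took in, 4 rose and 2 fell. That is 85.7% called and 57.1% higher, against 64.4% and 32.0% of all tested genes. LOC100283738 (chromosome 4), named for the HSC70-interacting protein, which in mammals holds HSP70 in its ADP-bound state, had 411.1, 434.4 and 415.2 CPM in shrek1 and 290.9, 284.4 and 270.7 CPM in WT (0.58 ± 0.09, adjusted p = 0.000198). Its closest named protein in Arabidopsis joins that kind of repeat domain to a thioredoxin. LOC100284130 (chromosome 5), closest to the escort protein that keeps mitochondrial HSP70 soluble, had 27.03, 26.15 and 27.37 CPM in shrek1 and 18.66, 13.32 and 13.49 CPM in WT (0.83 ± 0.14, adjusted p = 0.000467). Both were clear of overlap, as were 34.7% of all tested genes with shrek1 above. The escort gene rose along with the 3 mitochondrial HSP70 genes.

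The genes for Fes1 proteins, which in yeast are nucleotide exchange factors of cytosolic HSP70, split in direction. LOC100279983 (chromosome 1), named Fes1A, had 40.12, 36.59 and 36.62 CPM in shrek1 and 24.86, 26.19 and 23.44 CPM in WT (0.61 ± 0.10, adjusted p = 0.000306). LOC100274023 averaged 5.69 ± 0.669 CPM in shrek1 and 2.13 ± 0.472 CPM in WT and rose (1.41 ± 0.24, adjusted p = 0.000419). LOC103647347 averaged 2.45 ± 0.713 CPM in shrek1 and 5.17 ± 0.900 CPM in WT and fell (-1.08 ± 0.26, adjusted p = 0.00436). LOC100191694 averaged 4.40 ± 0.856 CPM in shrek1 and 4.52 ± 0.645 CPM in WT, with no call (-0.04 ± 0.22, adjusted p = 0.894). LOC100275241, closest to the related HSP70-binding protein 1, averaged 0.584 ± 0.237 CPM in shrek1 and 2.83 ± 0.464 CPM in WT and fell (-2.25 ± 0.37, adjusted p = 0.000392). The abundant Fes1 gene therefore rose. Both genes that fell were under 10 CPM, but so was LOC100274023, which rose by more than the abundant gene.

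The wider HSP70 chaperone system was taken from lists of words in the descriptions. Of 275 tested genes in 8 partner lists, 97 were higher and 81 lower, at a median log2 fold change of 0.15, and 64.7% were called, near the 64.4% of all tested genes. Scaled by library size alone, 66 were higher and 105 lower. With the HSP90 genes taken by the name of their protein, a choice made after the data were seen, 91 of 236 tested genes were higher and 59 lower, at a median of 0.24. Small heat shock proteins, which hold unfolded proteins until HSP70 takes them over, had 18 of 29 tested genes higher and 5 lower, or 3 lower without WT replicate 2. Their median was 1.30. With 79.3% called and 62.1% higher, the list stood above all tested genes, of which 64.4% were called, 32.0% higher and 32.4% lower. By wording alone the small heat shock protein list takes in LOC541840, a glutathione transferase that fell, and LOC100501888, an AT-rich interactive domain protein with no call. Without these, a choice made after the data were seen, 18 of 27 were higher and 4 lower, at a median of 1.91. Their most abundant higher gene was hsp18c (LOC100037778, 6.95 ± 0.47, and 7.56 without WT replicate 1) and their most abundant lower one LOC100383256 (-0.92 ± 0.19).

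**Figure D5:**
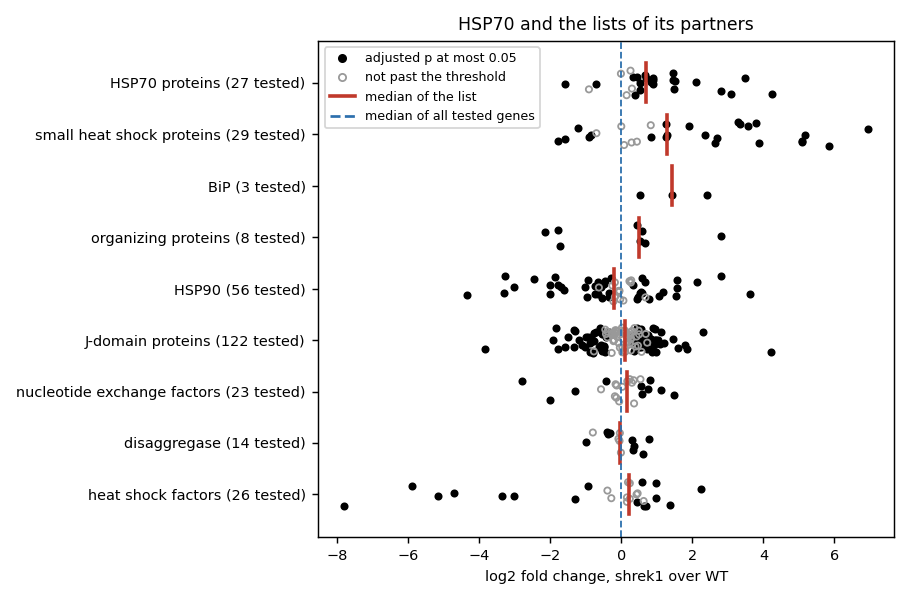
Log2 fold change, shrek1 over WT, of the tested genes for HSP70 proteins and of those in the 8 partner lists, 1 point per gene, filled where the adjusted p was at most 0.05, with the median of each list as a red bar and that of all tested genes as a dashed line. The medians of small heat shock proteins (1.30) and BiP (1.42, over 3 tested genes) lie to the right of that of HSP70 proteins (0.69). Those of J-domain proteins, exchange factors and the disaggregase list are near 0.

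J-domain proteins, the client-delivering partners, had 40 of 122 tested genes higher and 33 lower, and a median of 0.11. With 59.8% called and 32.8% higher the list was close to all tested genes, of which 64.4% were called and 32.0% were higher. The most abundant lower one, LOC100191411 (chromosome 1), described as DNAJ2, had 411.0, 447.5 and 357.4 CPM in shrek1 and 1237, 1117 and 1080 CPM in WT (-1.5 ± 0.12, adjusted p = 1.8e-06). It was far lower in every shrek1 library, while most cytosolic HSP70 genes were higher. The most abundant higher one, LOC100384319 (chromosome 2), described as ERDJ2A of the endoplasmic reticulum, had 162.8, 150.8 and 166.9 CPM in shrek1 and 91.36, 89.50 and 86.26 CPM in WT (0.85 ± 0.08, adjusted p = 8.99e-06).

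Nucleotide exchange factors outside the family had 6 of 23 tested genes higher and 4 lower, and a median of 0.17, with 43.5% called and 26.1% higher against 64.4% and 32.0% of all tested genes. LOC100284812, described as GrpE, the exchange factor of organelle HSP70, rose (0.56 ± 0.10, adjusted p = 0.000518), and LOC100273657, a BAG-domain gene, fell (-0.44 ± 0.13, adjusted p = 0.0145), a call lost without shrek1 replicate 1 (-0.37). When limma was run after a filter on mean FPKM of 1, 2 exchange factors were lower. All 3 tested BiP genes rose, against 32.0% of all tested genes. LOC732808 had 330.1, 387.3 and 311.2 CPM in shrek1 and 236.5, 252.3 and 217.3 CPM in WT (0.54 ± 0.11, adjusted p = 0.00128). LOC732809 had 141.0, 147.8 and 110.3 CPM in shrek1 and 51.94, 52.09 and 45.56 CPM in WT (1.42 ± 0.12, adjusted p = 3.12e-06). The remaining BiP gene, LOC103625886, was low, at 1.84 ± 0.0471 CPM in shrek1 and 0.347 ± 0.265 CPM in WT (2.41 ± 0.56, adjusted p = 0.0034). Its log2 fold change ranged from 1.82 to 2.94 when 1 library at a time was left out. The call of LOC732808 was lost when scaled by library size alone (0.26).

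The organizing proteins pass clients on to HSP90. The list had 5 of 8 tested genes higher and 3 lower, or 62.5% higher. Over all tested genes 64.4% were called, 32.0% higher and 32.4% lower. Of the list, LOC103625745 and LOC103644263, which fell (-1.73 ± 0.21 and -2.14 ± 0.22), are named for mitotic-spindle organizing proteins and share only the wording. LOC100272917 (chromosome 2), closest to the HSP70-HSP90 organizing protein of wheat, had 121.2, 138.8 and 97.13 CPM in shrek1 and 22.92, 13.22 and 15.19 CPM in WT (2.80 ± 0.22, adjusted p = 1.45e-05). The other 4 higher organizing genes had log2 fold changes of 0.45 to 0.66, and LOC100272782 fell at a low level (-1.78 ± 0.38). Scaled by library size alone, 2 were higher. The list worded for HSP90 had 17 of 56 tested genes higher and 25 lower and a median of -0.20. It had 75.0% called and 30.4% higher, the latter close to the 32.0% of all tested genes. However, 35 of its tested genes name HSP90 only through the HSP90-like ATPase domain, among them histidine kinases and phytochromes. Of these 35, 4 were higher and 22 lower, or 74.3% called. A further 2 list only a domain of the activator of the HSP90 ATPase and had no call, and 8 are named as organizing proteins or as such activators, with 7 higher and 1 lower. Of 11 tested genes whose protein is named HSP90, a count made after the data were seen, 6 rose and 2 fell, with a median of 0.55. That is 72.7% called and 54.5% higher. LOC103647533, named HSP81-1, had 550.0, 578.4 and 476.7 CPM in shrek1 and 374.7, 373.1 and 344.8 CPM in WT (0.55 ± 0.10, adjusted p = 0.00081), a call lost when scaled by library size alone (0.27). LOC100272368, closest to the same protein, had 41.22, 55.14 and 28.80 CPM in shrek1 and 180.9, 114.5 and 112.4 CPM in WT and fell (-1.71 ± 0.29, adjusted p = 0.00176).

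The HSP101 disaggregase pulls proteins out of aggregates together with HSP70 and is a classic heat-induced protein of maize. Its gene, LOC541780 (chromosome 6), had 46.95, 55.32 and 55.31 CPM in shrek1 and 71.93, 77.78 and 55.18 CPM in WT, and fell (-0.38 ± 0.13, adjusted p = 0.0259). The genotypes overlapped at WT replicate 3, and the call was lost with the offset for gene length (-0.17), without shrek1 replicate 1 (-0.30) and without WT replicate 2 (-0.27). The list around it had 5 of 14 tested genes higher and 4 lower, most of them other Clp proteins. With 64.3% called and 35.7% higher the list was close to all tested genes, of which 64.4% were called and 32.0% were higher. When scaled by library size alone 1 was higher and 7 were lower. Without shrek1 replicate 2 or without any 1 of the WT libraries 2 or 3 were higher, and without shrek1 replicate 1 or WT replicate 2, 2 were lower. Its most abundant higher gene, LOC100383416 for plastid ClpC2 (0.32 ± 0.10), lost its call when scaled by library size alone (0.04) and without shrek1 replicate 2 (0.22), WT replicate 2 (0.31) or WT replicate 3 (0.25). Of the genes closest to plastid ClpB2, LOC103636567 rose (0.79 ± 0.11) and LOC100193235 did not pass (-0.04 ± 0.23, adjusted p = 0.9). LOC100217072, closest to mitochondrial ClpB3, rose near the threshold (0.35 ± 0.13, adjusted p = 0.0347).

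Heat shock factors, the transcription factors that bind heat shock genes, had 8 of 26 tested genes higher and 8 lower, and a median of 0.21, with 61.5% called and 30.8% higher against 64.4% and 32.0% of all tested genes. The list takes in 2 heat shock factor binding proteins, and without these 7 of 24 tested genes were higher and 8 lower. Scaled by library size alone, 4 of the whole list were higher. Of the class A-2 factors, LOC100280736 (A-2c) had 9.783, 6.305 and 5.428 CPM in shrek1 and 23.81, 16.43 and 13.16 CPM in WT and fell (-1.31 ± 0.27, adjusted p = 0.00266), and LOC100281501 (A-2e) fell too (-0.94 ± 0.13, adjusted p = 0.000136). LOC100280318 (A-2b, 0.19 ± 0.22) and LOC109621226 (A-2a, 0.43 ± 0.47) did not pass. The most abundant higher gene of the list, LOC541966 (chromosome 2), is empty pericarp 2, a heat shock factor binding protein that restrains the heat shock response in maize kernels. It had 116.0, 105.5 and 111.0 CPM in shrek1 and 48.95, 60.60 and 57.68 CPM in WT (0.99 ± 0.10, adjusted p = 1e-05).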

How the data were processed

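RNA of 3 shrek1 and 3 WT kernel samples was sequenced from strand-keeping libraries, per the labels' protocols. The deposited count table holds raw counts per gene without normalization. The deposited FPKM table was made by the authors. Within 6.66e-05% its values equalled the counts divided by gene length and by a normalised library size, which was 0.886 to 0.945 of the total counts in shrek1 and 1.08 to 1.16 in WT. HISAT2 2.0.5 and featureCounts 1.5.0-p3 are named in the submitters' processing notes, and the strand setting was not given in the sources used here. Coordinates are those of the deposited table, whose build is not given in the labels, and chromosome numbers come from RefSeq's Zm-B73-REFERENCE-NAM-5.0, which holds all 39 identifiers, 37 of them with the start given in the deposited table.

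Counts were tested with edgeR 4.0.16 in R 4.3.3 (filterByExpr by genotype, TMM scaling, robust quasi-likelihood test, two-sided). P-values were adjusted over the 22681 genes tested with a threshold of 0.05, and "rose" and "fell" mark genes past it. Standard errors come from the fold change and the F value and are approximate. The common biological coefficient of variation was 0.149, and 3 counts, the limit that a count of 0 allows, equal 0.141 to 0.185 CPM, for counting error only.

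Values per library are given for genes with at least 10 CPM in the higher genotype, and each partner list gives its most abundant higher and lower gene. The members, lists and tests were chosen with earlier results of these data known. The count without partner genes and those of HSP90 genes by protein name and of the partner lists without genes that share only wording were added after seeing the data. Alternatives were DESeq2 1.42.0, its size factors in edgeR, upper-quartile scaling, library size only, no filter, limma 3.58.1 on log2 of FPKM plus 1 or 0.1 and after a filter on mean FPKM of 1, an offset for gene length, a replicate block, and leaving out each library. No sequences were used here.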

Additional observations from a re-analysis of the deposited data

How the results depend on the processing

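Of the 34 tested family genes, 22 kept their direction and their side of the threshold in all 16 alternatives, and 12 changed in at least 1. The number of family genes higher in shrek1 was 24 and ranged from 20, with library size as the only scaling, to 26, with the offset for gene length, and the number lower was 4 or 5. Leaving out 1 library at a time gave 22 to 25 higher and 4 to 5 lower family genes, 6400 to 6886 higher and 6702 to 7548 lower genes over the whole table, and 87 to 97 higher and 68 to 80 lower partner genes. Library size as the only scaling moved the median log2 fold change of all genes by -0.287 and upper-quartile scaling by -0.139. Library size alone gave 4994 higher and 9682 lower genes over the whole table. Without the partner genes and the forkhead-associated domain gene, an alternative chosen after seeing the data, 20 family genes were higher and 2 lower.

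The share of the family was 0.3356% in shrek1 and 0.2436% in WT as a share of summed FPKM, and 0.6135% in shrek1 and 0.5027% in WT of counts on protein-coding genes other than zeins. Without the partner genes it was 0.5283% in shrek1 and 0.3727% in WT. Leaving out 1 library at a time, the share was 0.5329% to 0.618% in shrek1 and 0.4077% to 0.4136% in WT.

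Log2 fold changes that changed sign were all without a call: LOC103639924 (0.11 with the offset for gene length, 0.10 without shrek1 replicate 3), LOC103626279 (-0.13) and LOC103652717 (-0.02) with library size only, LOC100191694 (0.12 without shrek1 replicate 1, 0.01 without WT replicate 1) and LOC100280318 (-0.09 with library size only, -0.08 without WT replicate 3). Leaving out 1 library at a time, LOC100191694 ranged from -0.16 to 0.12 and LOC100280318 from -0.08 to 0.47. The cause was not tested.

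Same-numbered libraries of the genotypes were not shown to pair, with correlations of their deviations of 0.096, -0.0493 and 0.028, and not every library correlated best with its own number. With the replicate number as a block, 24 family genes were higher and 4 lower, 7150 and 7198 genes over the whole table, and 96 and 78 partner genes. The 5 untested genes had at most 15 counts over the 3 libraries of a genotype, and 3 of them had none in any library.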

Other observations

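Beside the protein-coding genes, 16 rows annotated as pseudogenes or other non-coding genes carry HSP70 wording, of which 9 had at least 1 count and 3 were tested. None of the 3 passed in the edgeR fit over all genes, 0 of them had an unadjusted p under 0.05 there, and 0 passed with DESeq2. LOC103638334, a pseudogene described as an HSP70 and vacuolar sorting protein fusion, had a log2 fold change of 0.90 (adjusted p = 0.112), LOC103642781 of -0.29 (adjusted p = 0.366) and LOC103648921 of 0.02. Reads from close protein-coding copies could be among their counts.

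A further 2 pairs of family genes lie on the same stretch of a chromosome, but 1 gene of each pair was not tested, so their ratios were not compared. On chromosome 1, LOC100281806, which rose 6.97-fold, is 113 kb from LOC103634464, which had no count in shrek1 and 9 counts over the WT libraries, with 5 genes between them. On chromosome 10, LOC103641707 is 163 kb from LOC100501445, which had no count in any library, with 4 genes between them.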
